A study of Mus musculus with 9 samples.

Results

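The 10 genes examined here regulate blood stem and progenitor cells, and they were measured in macrophage lines of 3 origins. They are Kit, Flt3 and Cd34, which encode cell surface proteins, and Gata1, Gata2, Meis1, Hlf, Mecom, Myb and Gfi1, which encode transcription factors. The members were chosen by name from their known roles in haematopoiesis, with earlier results of these data known. All 10 were found among the 24411 genes of the table. The lines were grown from C57BL/6 mice to compare macrophages that arise at different stages of development. The 3 YS lines came from yolk sac at E9.5, the 3 FL lines from fetal liver at E14.5 and the 3 BM lines from the bone marrow of adult mice. In every group the unfractionated cells of pooled mice were cultured in 100 ng/mL recombinant human M-CSF, the growth factor of macrophages, and colonies that kept growing were collected after long culture. Each line was a bulk culture from its own dish or well, so lines of one origin may share starting cells, and the p-values below measure the spread among cultures rather than among animals.

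Blood stem cells renew themselves and give rise to progenitors, which lose this ability as they commit to a lineage. KIT and FLT3 are receptors through which stem cell factor and FLT3 ligand keep stem cells and early progenitors alive, and CD34 is a surface sialomucin by which progenitors are often isolated. GATA2, MEIS1, HLF and MECOM (EVI1) maintain the stem cell state. MYB is needed for definitive blood formation and not for the first yolk sac macrophages. GATA1 drives the red cell, platelet and mast cell lineages, and GFI1 restrains stem cell division and directs granulocyte formation. Macrophage maturation normally goes along with the loss of most of these transcripts.

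In these lines, 7 of the 10 regulators were at or near 0 throughout, and Gata2 was so in all lines but YS line 1, where it was at 1.54 TPM. Only Cd34 and Meis1 passed the filter of at least 1 TPM (a relative transcript level scaled to the same total in every library and already divided by transcript length) in at least 3 of the 9 libraries, which 11753 of the 24411 genes passed. Meis1 was between 3.83 and 7.86 TPM in every line, and Cd34 differed widely from line to line and was almost absent from BM lines. Of the 72 values of the other 8 genes, 18 were above 0 and 3 were at 0.1 TPM or more. Of the 10 regulators, 7 stayed under 1 TPM in all 9 libraries, against 47.8% of all genes in the table, and 1 regulator, Flt3, was listed at 0 in all of them, against 30.4% of all genes. TPM keeps no read numbers, so the depth behind a value of 0 is unknown, and such genes are reported as listed at 0. A check of 15 housekeeping genes found none listed at 0 in any library, and the lowest of their values was 23.8 TPM.

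**Figure D1:**
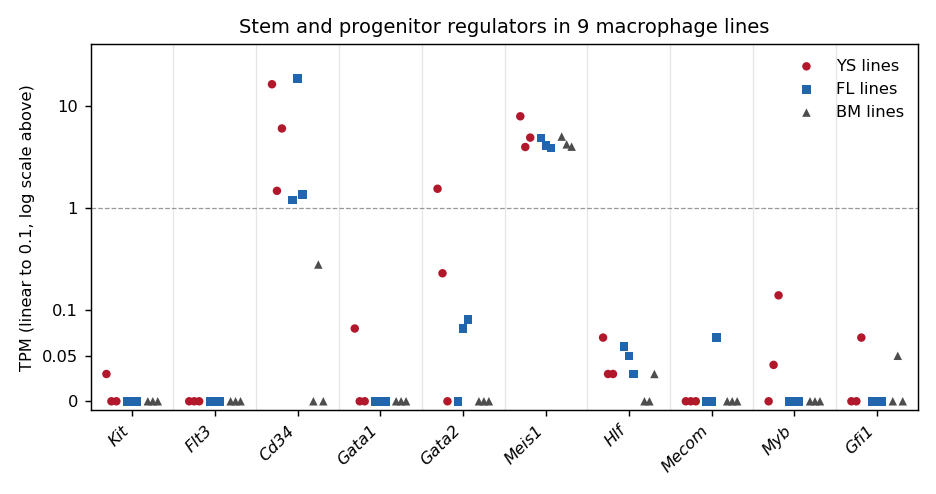
TPM of the 10 regulators in each of the 9 lines. Circles are YS lines, squares FL lines and triangles BM lines, the vertical axis is linear up to 0.1 TPM and logarithmic above, and the dashed line marks 1 TPM. Only Meis1 lies above 1 TPM in all 9 lines, and Cd34 does so in the 6 YS and FL lines and in no BM line.

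The sequences just before the start sites of Cd34, Meis1 and Myb are shown because they set the gene with variable transcripts and the gene with steady transcripts beside one that was at or near 0. Each is the 250 bases upstream of the RefSeq start, in mouse build GRCm38.p6, read 5′ to 3′ on the strand of the gene, with CpG dinucleotides in capitals. The Cd34 window lies at chr1:194938571-194938820 on the plus strand, the Meis1 window at chr11:19018970-19019219 on the minus strand and the Myb window at chr10:21160985-21161234 on the minus strand.
Cd34: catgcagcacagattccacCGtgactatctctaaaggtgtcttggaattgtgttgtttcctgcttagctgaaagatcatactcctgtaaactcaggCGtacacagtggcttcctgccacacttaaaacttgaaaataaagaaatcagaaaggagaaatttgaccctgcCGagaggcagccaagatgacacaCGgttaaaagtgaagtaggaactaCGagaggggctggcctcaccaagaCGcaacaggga
Meis1: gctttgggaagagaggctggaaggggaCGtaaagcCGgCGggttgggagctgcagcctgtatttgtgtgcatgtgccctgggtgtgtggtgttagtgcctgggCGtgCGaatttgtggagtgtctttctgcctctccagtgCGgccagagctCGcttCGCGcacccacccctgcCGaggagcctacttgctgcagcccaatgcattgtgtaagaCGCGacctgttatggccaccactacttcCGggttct
Myb: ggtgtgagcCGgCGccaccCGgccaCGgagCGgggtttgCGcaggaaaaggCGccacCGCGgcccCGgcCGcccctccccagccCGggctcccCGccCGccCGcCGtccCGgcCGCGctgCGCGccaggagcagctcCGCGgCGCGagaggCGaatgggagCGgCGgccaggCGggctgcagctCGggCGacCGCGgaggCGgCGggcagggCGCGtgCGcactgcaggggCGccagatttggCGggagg
The Cd34 window holds 6 CpG dinucleotides, the Meis1 window 13 and the Myb window 40. The median over 32851 promoter windows of the same length was 6, with quartiles of 2 and 16. Among the other members, Hlf held 26 CpG dinucleotides, the windows of Gata2 22 and 24, those of Kit 17 and 18, Flt3 13 and Gata1 2, so the members that did not pass the filter ranged from poor to rich in CpG. The letters of 5 short motifs were searched on both strands in the 14 windows of the 10 members, and none of the matches overlapped. AGATAA, read by GATA factors, occurred in 9.99% of all promoter windows and CAGCTG, an E-box, in 13.0%, and AGGAAGT, read by ETS factors, occurred in 7.69%. None of these exact spellings was in a window of a member. Each factor family was searched with a single spelling, and the others that it can read were not searched, so a lack of its sites is not shown. TGTGGT, read by RUNX factors and present in 14.0% of all windows, occurred once, in the Meis1 window. TGACAG, read by MEIS factors and present in 15.9%, occurred once, in a window of Mecom.

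The receptor genes Kit and Flt3 had almost no transcripts. Kit was at 0.03 TPM in YS line 1 and listed at 0 in the other 8 lines. Flt3 was listed at 0 in all 9 lines. Here and below, values of a group are in the order of lines 1 to 3. The cultures held transcripts of the ligands all the same. Kitl, which encodes stem cell factor, was at 25.2, 48.0 and 47.6 TPM in YS, 55.0, 43.5 and 42.6 in FL and 81.2, 76.0 and 90.8 in BM lines. Each BM line was thus above every YS and FL line, and the share of all genes with this pattern was not counted. The Kitl level of YS lines was lower than that of BM lines by a log2 difference of -1.07 ± 0.24 (SE, adjusted p = 0.0136), and that of FL lines by -0.81 ± 0.24 (SE, adjusted p = 0.0459), which fell short of 2-fold. The first was under 2-fold without YS line 1 (-0.77, adjusted p = 0.00852), and the second missed the threshold without FL line 2 or 3 or BM line 1 or 3 (adjusted p up to 0.151). Flt3l, which encodes FLT3 ligand, ranged from 7.25 to 14.0 TPM over the 9 lines, and no comparison of it passed the test. By contrast Csf1r, the M-CSF receptor and a relative of KIT and FLT3, ranged from 1086 to 2441 TPM.

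Cd34 was the most variable member. It stood at 16.2, 1.47 and 5.98 TPM in YS, 1.20, 18.35 and 1.36 in FL, and at 0, 0.28 and 0 in BM lines. YS line 1 and FL line 2 were therefore high, while all BM lines were below every YS and FL line. The group means were 7.87 ± 7.53 TPM in YS, 6.97 ± 9.86 in FL and 0.0933 ± 0.162 in BM lines (SD, n = 3 lines each). Differences between groups were tested with limma on log2(TPM + 1), a scale that understates changes of low genes, with Benjamini-Hochberg adjustment over all tested genes, and were called at an adjusted p under 0.1 and more than 2-fold. Cd34 was higher in YS lines than in BM lines by 2.62 ± 0.91 log2 units (SE, 95% confidence interval 0.55 to 4.69, adjusted p = 0.0622) and was called. It was the 1 called member of 2 tested, beside 7.57% of all tested genes called higher and 5.22% called lower in this comparison. Cd34 passed the filter only through YS and FL lines, where it was high, so this count is not independent of the difference. The call was lost without YS line 1 (1.94, adjusted p = 0.159), without YS line 3 (2.58, adjusted p = 0.109), and without BM line 1, 2 or 3 (2.56, 2.74 and 2.56, adjusted p = 0.153, 0.115 and 0.152). The size of the difference also moved with the pseudocount, from 5.11 with 0.1 in place of 1 to 1.34 with 4, at which it was not called.

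FL lines were above BM lines in Cd34 by 2.10 ± 0.91 log2 units (SE, 95% confidence interval 0.03 to 4.17), and this difference was not called (adjusted p = 0.144). In this comparison 6.01% of all tested genes were called higher and 4.30% lower, and no member was, although 1 of the 2 tested had an unadjusted limma p under 0.05. With a pseudocount of 0.1, the FL difference of Cd34 was 4.39 and was called (adjusted p = 0.0363). The lowest FL line was above the highest BM line, as for YS lines. Such non-overlap with the origin above BM lines was seen in 30.3% of all tested genes for YS lines and 31.0% for FL lines, so it was not rare. Each of these Cd34 differences had an exact two-sided permutation p of 0.1, the smallest that 3 lines against 3 allow. YS and FL lines overlapped in Cd34, with a difference of 0.52 ± 0.91 (SE, 95% confidence interval -1.55 to 2.59, adjusted p = 0.74), beside 1.95% of all tested genes called higher and 1.85% lower in YS than in FL lines. No member was called in that comparison, and 0 of the 2 tested had an unadjusted limma p under 0.05. In bulk RNA, fewer cells that carry a transcript and less of it in each cell cannot be told apart.

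Cd34 is also transcribed by endothelial and mast cells, so their markers were listed beside it. Of 10 endothelial markers 5 reached 1 TPM in some line, and Emcn, Cldn5 and Sox17 were listed at 0 in all 9 lines. The summed endothelial level was 37.6 to 87.1 TPM in YS, 22.9 to 94.4 in FL and 41.2 to 45.4 in BM lines, and nearly all of it in BM lines was Vwf, the gene of von Willebrand factor, at 37.6 to 44.8 TPM. Vwf was called lower in YS than in BM lines (-2.285, adjusted p = 0.0714), with means of 9.11 and 41.3 TPM. This call was lost without YS line 1, without any 1 BM line or with no filter (adjusted p up to 0.182). Vwf was not called in FL against BM lines (-1.299, adjusted p = 0.315). Of 5 tested markers, 2 were called higher and 1 lower in YS than in BM lines, beside 7.57% and 5.22% of all tested genes. Kdr, Egfl7 and Cdh5 were instead near 0 in BM lines, as Cd34 was, at no more than 0.86, 0.38 and 0.28 TPM. Kdr, a VEGF receptor gene, was called higher than in BM lines in YS (3.07, adjusted p = 0.0807) and FL lines (4.35, adjusted p = 0.0318), the secreted factor gene Egfl7 in YS lines (2.85, adjusted p = 0.0113) and the junctional cadherin gene Cdh5 in FL lines (1.10, adjusted p = 0.0367). The calls of Kdr and Cdh5 were lost without BM line 1 or 3, and that of Kdr in YS lines also without BM line 2, YS line 2 or 3 or FL line 1, with no filter or with 6 libraries in the fit (adjusted p up to 0.192). With a pseudocount of 4 Cdh5 was under 2-fold. Egfl7 reached 1 TPM in the 3 YS lines alone, at 8.18, 2.03 and 19.9 TPM. It passed the filter only through the group where it was high, and could not be tested without any 1 YS line. Kdr and Cdh5 passed the filter only through YS and FL lines. Among YS lines the order differed from gene to gene. YS line 1, the highest in Cd34, had 0.29 TPM of Kdr and 0.14 TPM of Cdh5 but 25.8 TPM of Tie1, an endothelial receptor gene, while FL line 2 had 17.5, 1.38 and 0 TPM of them. Of 10 mast cell and basophil markers 6 were listed at 0 in all lines, among them Tpsb2, Mcpt4 and Fcer1a. Their summed level was 1.38 to 5.55 TPM in YS, 0.50 to 2.53 in FL and 0 to 0.28 in BM lines, so it was lowest in BM lines as Cd34 was. Where the sum was above 0 most of it was Hdc, except in FL line 3 and BM line 3. In FL line 3 Cma1 was at 1.33 TPM and Hdc at 0.96 TPM. In BM line 3 Tpsab1 was at 0.14 TPM and Hdc was listed at 0. The part of these cell types in the Cd34 difference was not tested.

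Meis1, a homeobox cofactor of HOX proteins, was present throughout. It stood at 7.86, 3.94 and 4.87 TPM in YS, 4.83, 4.06 and 3.83 in FL and 4.98, 4.18 and 3.97 in BM lines. YS line 1 was the highest, and the 3 groups overlapped. The means were 5.56 ± 2.05, 4.24 ± 0.52 and 4.38 ± 0.53 TPM in YS, FL and BM lines (SD, n = 3 each). The difference of YS and BM lines was 0.25 log2 units (95% confidence interval -0.28 to 0.77, adjusted p = 0.45) and that of FL and BM lines -0.04 (95% confidence interval -0.56 to 0.49, adjusted p = 0.93). YS and FL lines differed by 0.28 (95% confidence interval -0.24 to 0.81, adjusted p = 0.463), and the exact two-sided permutation p of the 3 comparisons was 0.7, 0.6 and 0.4. The intervals leave out a change of 2-fold on this scale in either direction for all 3 comparisons. Hoxa9, a HOX partner of Meis1, was sparse, seen in FL line 1 (1.06 TPM) and FL line 3 (0.35 TPM), with 0 listed elsewhere.

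**Figure D2:**
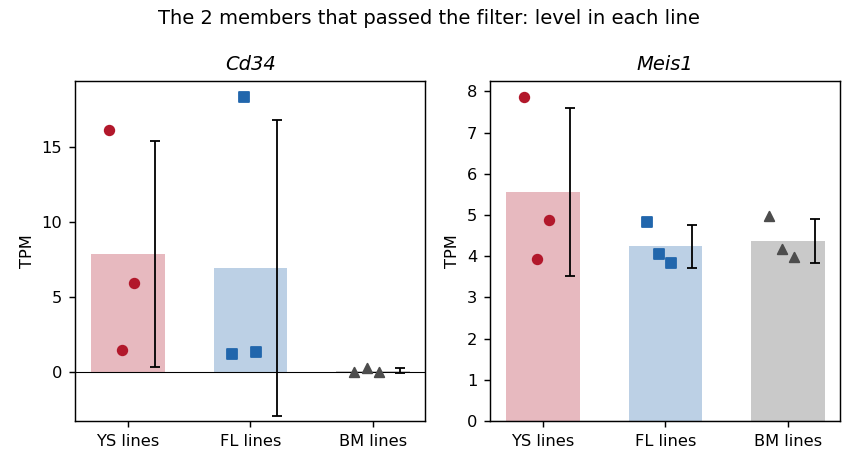
TPM of Cd34 (left) and Meis1 (right) in each line, with points for lines, bars for group means and error bars for the SD of 3 lines. Cd34 ranges from 1.20 to 18.35 TPM among YS and FL lines and is at most 0.28 TPM in BM lines, while Meis1 lies between 3.83 and 7.86 TPM in all groups.

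The stem cell factors Gata2, Hlf and Mecom were low or not seen. Gata2 was at 1.54 TPM in YS line 1, 0.23 TPM in YS line 2, 0.08 TPM in FL line 2 and 0.09 TPM in FL line 3, and was listed at 0 in YS line 3, FL line 1 and all BM lines. YS line 1 was thus the single line above 1 TPM. Hlf was above 0 in 7 of 9 lines but never above 0.07 TPM, and Mecom was seen in FL line 3 alone, at 0.07 TPM. The lineage factors Gata1, Myb and Gfi1 never exceeded 0.14 TPM. Gata1 was at 0.08 TPM in YS line 1 and listed at 0 in the other 8 lines. Myb was at 0.04 TPM in YS line 2 and 0.14 TPM in YS line 3 and listed at 0 in the other 7, including all FL and BM lines. Gfi1 was at 0.07 TPM in YS line 3 and 0.05 TPM in BM line 2 alone. Summed over the 8 genes that did not pass the filter, the level was 1.72, 0.30 and 0.24 TPM in YS, 0.06, 0.13 and 0.19 in FL and 0, 0.05 and 0.03 in BM lines. The lowest YS line, at 0.24 TPM, was just above the highest of the others, at 0.19 TPM in FL line 3. How often sums of other low genes show this order was not counted, and the depth behind such values is unknown. Most of the sum of YS line 1 was Gata2. When the filter was dropped and all genes above 0 were fitted, none of the 7 that could be fitted was called in any comparison, and the lowest adjusted p was 0.244, for Gata2 in YS against BM lines.

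YS line 1 held the highest value of 5 of the 9 members seen in any line, namely Kit, Gata1, Gata2, Meis1 and Hlf. Kit, Gata1 and Hlf were at only 0.03, 0.08 and 0.07 TPM there, where the depth behind a value is unknown. The share that follows is over genes of all levels. Of all genes above 0 in a library, 25.1% were highest in that line. Its correlation with the other YS lines (Pearson's r of log2(TPM + 1) 0.942 and 0.912) was lower than that between YS lines 2 and 3 (0.960), and the range was 0.947 to 0.963 among FL lines and 0.975 to 0.985 among BM lines. Without it, the YS values of Gata2 were 0.23 and 0 TPM.

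The genes next to the 8 members that did not pass the filter ranged from 0 to 285 TPM. This comparison was made after the values were seen, with the order of protein-coding genes in RefSeq for GRCm38.p6. Of the 16 neighbours of the 8 genes that did not pass the filter, 5 were at 10 TPM or more in all 9 lines, and these stood beside 5 of the 8 genes. That share, 31.2%, was close to the 36.0% of all 19516 protein-coding genes of the table that were at 10 TPM or more in all lines. Gata2 lies next to Rpn1, a subunit of the oligosaccharyltransferase, at 181 to 285 TPM. Hlf is next to Mmd at 34.9 to 85.5 TPM, Myb next to Hbs1l at 34.3 to 47.2 TPM, Flt3 next to Pan3 at 23.0 to 35.3 TPM and Gata1 next to the deacetylase gene Hdac6 at 11.6 to 22.8 TPM. Both neighbours of Mecom were listed at 0. Kit lies between Pdgfra, at most 0.04 TPM, and Kdr, the gene of the VEGF receptor. Kdr was at 0.29, 16.1 and 54.4 TPM in YS, 17.4, 17.5 and 50.4 in FL and 0.03, 0.86 and 0.08 in BM lines, all with Kit at or near 0.

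**Figure D3:**
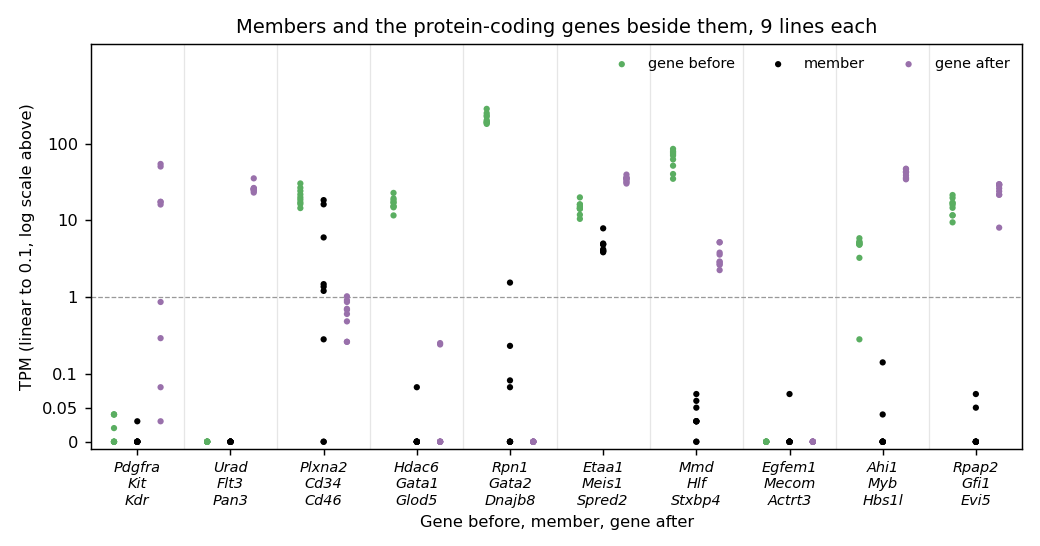
TPM of each member (black) and of the protein-coding genes before it (green) and after it (purple) along the chromosome, with 9 points per gene for the 9 lines and a vertical axis that is linear up to 0.1 TPM and logarithmic above. Flt3, Gata1, Gata2, Hlf and Myb lie beside genes at 10 TPM or more in all lines, and both neighbours of Mecom are at 0.

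From a list of 20 other transcription factors of stem and progenitor cells 13 passed the filter, and most of these were lower in BM lines. This list and that of surface genes below were chosen with earlier results of these data known. Their counts therefore describe the listed genes and are not an independent test of such genes. Hoxb4 and Cbfa2t3 passed the filter only through YS and FL lines. At an adjusted p under 0.1 with no fold threshold, 10 of the 13 were higher in YS than in BM lines and 0 lower, beside 23.5% and 14.4% of all tested genes. The median log2 difference of the 13 was 0.82, against 0.11 over all tested genes. Of the 10, 4 also passed 2-fold. Hoxb4, a homeobox factor that expands stem cells, was at 4.31, 2.95 and 3.11 TPM in YS, 0.89, 0.21 and 2.08 in FL and 0.06, 0.87 and 0 in BM lines, with a difference of 1.81 between YS and BM lines (adjusted p = 0.0118). Cbfa2t3, a corepressor in GATA and TAL1 complexes, was at 7.79, 1.59 and 0.41 TPM in the respective YS lines and at most 0.02 TPM in BM lines (1.66, adjusted p = 0.0882). The ETS factor Fli1 averaged 85.7 TPM in YS and 38.4 TPM in BM lines (1.10, adjusted p = 0.00631). The lymphoid and stem cell factor Ikzf1 averaged 58.5 and 26.7 TPM (1.10, adjusted p = 0.00329). Fli1 and Ikzf1 fell just under 2-fold without YS line 3 (0.95 and 1.00), and Cbfa2t3 lost its call without FL line 2 (adjusted p = 0.109) or without BM line 1, 2 or 3 (adjusted p = 0.189, 0.169 and 0.19). Cbfa2t3 was also not called with a pseudocount of 4, with no filter, after quantile normalization or with 6 libraries in the fit (adjusted p from 0.105 to 0.138), and it did not pass the filter without YS line 1 or 2 or FL line 3. The number past 2-fold was 1 after quantile normalization and 2 after median-of-ratios scaling, with a pseudocount of 4, with a filter of 5 TPM or without YS line 3. The number without a fold threshold was 6 without BM line 1 or without BM line 3. Quantile normalization left 8 higher and 1 lower. With no fold threshold 1 factor was also lower with median-of-ratios scaling, a filter of 5 TPM or 6 libraries in the fit. The same held without YS line 3, FL line 2 or FL line 3. Bmi1 of this list went the other way from most. It was at 35.47, 35.85 and 43.76 TPM in YS, 42.9, 46.2 and 34.7 in FL and 46.6, 50.1 and 48.2 in BM lines.

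In FL against BM lines, 9 of the 13 factors were higher and 0 lower at an adjusted p under 0.1, beside 17.0% and 10.6% of all tested genes, and the median was 0.58 against 0.09. Tal1, a master factor of blood formation, passed 2-fold, at 35.0, 50.5 and 35.4 TPM in FL lines and 18.9, 22.6 and 15.4 TPM in BM lines (1.04, adjusted p = 0.00813). This call was lost under both other scalings, with a pseudocount of 4, and without FL line 2 (0.87) or BM line 3 (0.91). The count of 9 fell to 6 under either scaling and without BM line 2, to 5 without FL line 3 or BM line 1, to 4 without FL line 1 and to 3 without BM line 3. Between YS and FL lines none of the 13 was called by limma, although 5 had an unadjusted p under 0.05 and Ikzf1 passed with no fold threshold (0.53, adjusted p = 0.0899, missed without any 1 line but YS line 2 or FL line 1, with adjusted p up to 0.241), beside 6.20% of all tested genes higher and 6.56% lower. The median here was 0.29 against 0.02.

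**Figure D4:**
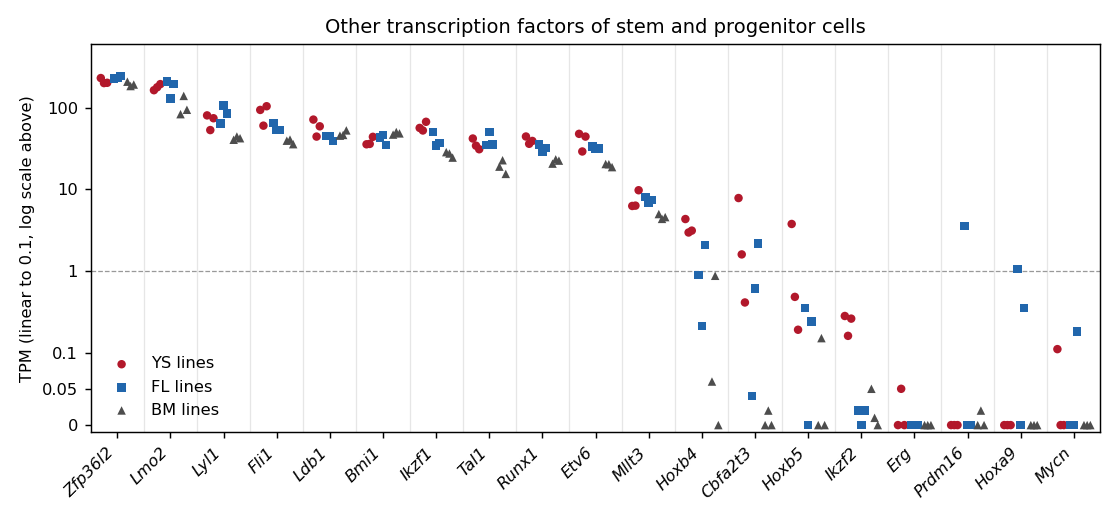
TPM of 19 of the 20 further stem and progenitor cell transcription factors in each line, ordered by median level, with circles for YS, squares for FL and triangles for BM lines and an axis that is linear up to 0.1 TPM and logarithmic above. The BM lines are the lowest group for Lyl1, Fli1, Ikzf1, Tal1, Runx1, Etv6 and Mllt3, and Erg is at most 0.05 TPM.

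Gata2 belongs to a group of 7 factors that bind together in blood stem cells, with Runx1, Tal1, Lmo2, Lyl1, Erg and Fli1. This group was looked at after the values were seen. The 7 split cleanly by level, with 5 at 10 TPM or more in all 9 lines and Gata2 and Erg below 2 TPM in all of them. Runx1, a factor for the emergence of stem cells that also acts in macrophages, was at 44.2, 36.0 and 39.0 TPM in YS, 35.3, 28.6 and 32.1 in FL and 20.6, 23.2 and 22.4 in BM lines (YS against BM 0.82, adjusted p = 0.0037). Each BM line was below every other line, and the share of all genes below both other groups in this way was not counted. The LIM protein gene Lmo2 ranged from 129 to 207 TPM in YS and FL lines and from 82.9 to 139 TPM in BM lines. Lyl1, the close relative of Tal1, ranged from 53.0 to 106 TPM and from 40.3 to 44.2 TPM. Erg was listed at 0 except for 0.05 TPM in YS line 2.

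**Figure D5:**
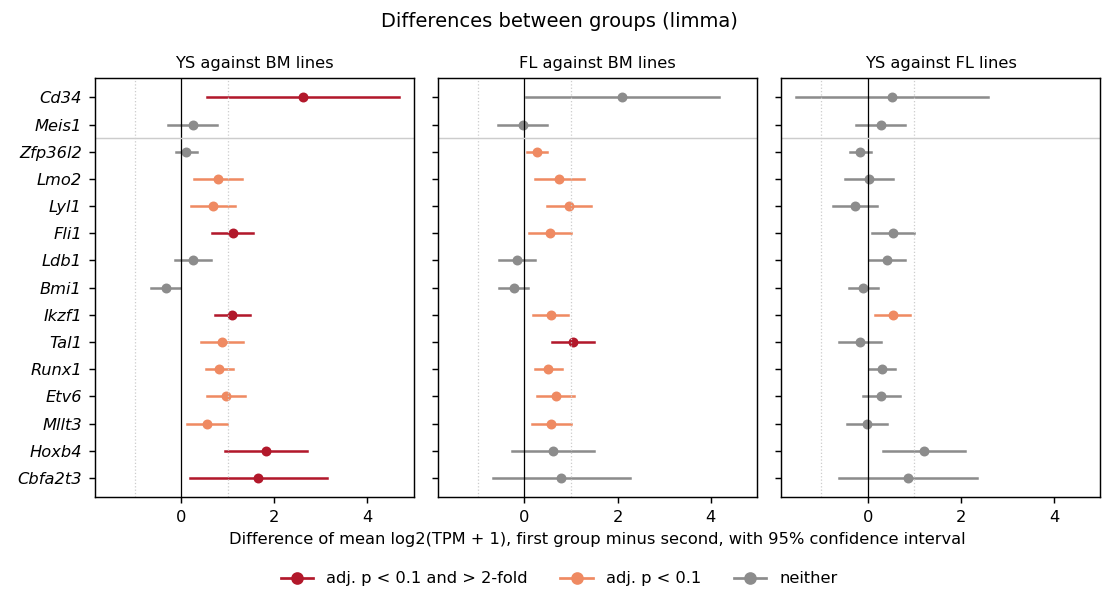
Difference of mean log2(TPM + 1) with its 95% confidence interval for Cd34, Meis1 and the 13 further factors that passed the filter, in 3 comparisons from the limma fit. Dark red marks genes called at an adjusted p under 0.1 and more than 2-fold, orange those at an adjusted p under 0.1 only, and grey the rest, and Cd34 has the widest interval in each panel.

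Surface proteins and ligands of stem cells went in both directions. Of 15 listed genes 7 passed the filter. In YS against BM lines 1 was called higher and 3 lower, beside 7.57% and 5.22% of all tested genes, and in FL against BM lines 1 higher and 2 lower, beside 6.01% and 4.30%. Ly6a, which encodes Sca-1, was at 587, 2031 and 3877 TPM in YS, 1292, 189 and 988 in FL and 88.6, 138 and 9.23 in BM lines. It was higher than in BM lines by 5.05 in YS (adjusted p = 0.014) and 3.63 in FL lines (adjusted p = 0.0543). The call in FL lines was lost without FL line 1 or 3 or BM line 3 (3.11, 3.30 and 2.48, adjusted p = 0.152, 0.143 and 0.159). Procr, which encodes the endothelial protein C receptor found on stem cells, was at 1.95, 0.51 and 1.08 TPM in YS, 0.11, 2.7 and 1.45 in FL and 20.6, 24.96 and 11.8 in BM lines, lower by -3.20 in YS (adjusted p = 0.00325) and -3.16 in FL lines (adjusted p = 0.00298). Cd93, a C-type lectin receptor of progenitors and also of monocytes and endothelium, was lower by -2.34 in YS (adjusted p = 0.0183) and -2.73 in FL lines (adjusted p = 0.0116). Kitl, described above, was the third that was lower in YS lines. The median difference of the 7 was -0.45 in YS against BM lines and -0.04 in FL against BM lines, and 0.39 in YS against FL lines, where none was called by limma. Cd48, a surface protein of the SLAM family, passed the adjusted threshold there without 2-fold (-0.94, adjusted p = 0.0489, groups not overlapping, which was not counted over all genes). It was called without YS line 1, and it missed the threshold without FL line 2 or 3 (adjusted p up to 0.144). The stem cell genes Slamf1, Tek, Esam and Prom1 stayed at or under 0.29 TPM in all lines.

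Partners and targets of GATA1 and GFI1 were more abundant than these factors. Zfpm1, which encodes the GATA1 cofactor FOG1, was at 54.3, 31.1 and 42.9 TPM in YS, 23.3, 19.6 and 14.1 in FL and 9.17, 13.9 and 7.77 in BM lines. The 3 groups did not overlap, and the share of all genes that separate all 3 groups was not counted. Zfpm1 was higher in YS than in BM lines by 1.96 (adjusted p = 0.00291) and than in FL lines by 1.12 (adjusted p = 0.057), and was higher in FL than in BM lines by 0.83 (adjusted p = 0.0665), under 2-fold. The difference from FL lines was not called without YS line 1, FL line 2 or 3 or BM line 1 (adjusted p up to 0.166), and that between FL and BM lines missed the threshold without FL line 1 or 2 or BM line 1 or 3 (adjusted p up to 0.217). Epor, the erythropoietin receptor gene and a GATA1 target, was higher than in BM lines by 1.54 in YS (adjusted p = 0.077) and 1.88 in FL lines (adjusted p = 0.0518). It passed the filter only through YS and FL lines. Both calls of Epor were lost without BM line 1 or 3, the first also without YS line 1 or 2 or BM line 2 and the second without FL line 1 or 2 (adjusted p up to 0.195). With a pseudocount of 4 both fell under 2-fold, and the first was also lost with no filter, after quantile normalization and with 6 libraries in the fit (adjusted p from 0.102 to 0.115). Gfi1b, the relative of Gfi1 in red cell and platelet precursors, was at 17.2, 3.84 and 0 TPM in YS, 0.10, 0 and 0 in FL and 1.16, 1.33 and 1.15 in BM lines, and no comparison passed the test. Of the 19 erythroid and megakaryocyte genes listed, 6 passed the filter and 3 were called higher in YS than in BM lines, where 7.57% of all tested genes were, with Pf4, the platelet factor gene that macrophages also transcribe, as the third (2.63, adjusted p = 0.0768, lost without YS line 2 or 3 or BM line 1 or 3, with no filter or with 6 libraries in the fit, with adjusted p up to 0.234).

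The lines carried the markers of macrophages. All 10 macrophage markers reached 10 TPM in some line, and their summed level was 4464 to 9716 TPM in YS, 12124 to 28792 in FL and 11943 to 13645 in BM lines. Lymphoid and stromal markers never reached 1 TPM. Of 8 dendritic cell markers 2 reached it, and both were called higher in YS than in BM lines, beside 7.57% of all tested genes. Batf3, a factor of dendritic cells, was at 52.0, 7.62 and 3.78 TPM in YS, 2.49, 2.42 and 0.23 in FL and 1.59, 0.85 and 2.28 in BM lines (2.37, adjusted p = 0.0607), highest in YS line 1, and the call was lost without BM line 1, 2 or 3 (adjusted p up to 0.152). Zbtb46, another, was at 6.03 to 7.09 TPM in YS and 2.55 to 2.91 TPM in BM lines (1.05, adjusted p = 0.028) and fell under 2-fold under both other scalings and with a pseudocount of 4. Of 12 granulocyte progenitor genes, a cell type where Gfi1 and Myb are active, 3 reached 1 TPM and 6, with Elane and Ctsg among them, were listed at 0 in all lines. Cebpe of that list, a late granulocyte factor, reached 25.1, 8.35 and 1.48 TPM among YS lines and stayed at or under 1.33 TPM elsewhere. It passed the filter only through YS and FL lines. S100a8 of that list went the other way, at 2.19, 0 and 0.54 TPM in YS, 10.5, 25.1 and 24.2 in FL and 5.00, 3.43 and 3.66 in BM lines. Of the 2 tested, 1 was called higher and 1 lower in YS than in BM lines, beside 7.57% and 5.22% of all tested genes. The counts were the same in YS against FL lines, beside 1.95% and 1.85%.

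Likeness of pattern was taken as Pearson's r of log2(TPM + 1) over the 9 lines, which share library preparation and culture. The genes most like Cd34 were Abhd15 (r = 0.952), Ccdc97 (0.949) and Ager (0.947). Abhd15 was at 11.1 and 10.9 TPM in the lines with the highest Cd34, YS line 1 and FL line 2, and at 1.60 to 2.06 TPM in BM lines. Among the genes most like Meis1 were those of the RNA-binding proteins Sfpq (r = 0.965) and Dhx9 (0.961), each with its highest value in YS line 1. Between Cd34 and Meis1, r was 0.473 and Spearman's rho 0.075.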

How the data were processed

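Bulk RNA-seq of 9 macrophage lines was analysed, with 1 library per line and 3 lines per group, grouped by the sample labels. Libraries were poly(A)-selected, stranded and sequenced as single 75 nt reads, and the authors deposited TPM for 24411 gene symbols. The submitters' processing notes name Trim Galore 0.6.6, STAR 2.7.9a and RSEM 1.3.3; the genome build and annotation are not given in the sources used here. Because TPM does not record depth, counting intervals and floors are left out. Near-identical gene copies share reads.

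Values were transformed as log2(TPM + 1), and genes that reached 1 TPM in 3 or more of the 9 libraries were tested with limma 3.58.1 in R 4.3.3 (all libraries in 1 fit, intensity trend, Benjamini-Hochberg adjustment, called at an adjusted p under 0.1 and more than 2-fold), and the procedure was tested on simulated data. Single genes were also compared by exact two-sided permutation tests. All members are named, with the called genes of the lists of further factors and of surface proteins (at most 4 per direction and comparison), and any other gene was picked with its values in view. The members and lists were chosen with earlier results of these data known. Promoter sequences, gene order and CpG counts come from RefSeq tables of GRCm38.p6, which held all 10 members. Alternatives changed the pseudocount, filter, scaling, variance trend, libraries fitted, thresholds, replicate block and lines. The raw counts and other assays of the study were not analysed here. A few genes of the lists are not reported here.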

Additional observations from a re-analysis of the deposited data

How the results depend on the processing

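The number of members called in YS against BM lines was 1 (Cd34, higher) and kept this value under 13 of 21 alternatives. It was 0 with a pseudocount of 4, with an adjusted p under 0.05 and with the replicate block, and 0 to 1 when single lines were left out (0 without YS line 1, YS line 3 or any BM line). In FL against BM lines it was 0, and 1 with a pseudocount of 0.1. In YS against FL lines it was 0 under all 21 alternatives. The difference of Cd34 kept its sign against BM lines under all 21 alternatives, from 1.34 to 5.11 in YS lines and from 1.06 to 4.39 in FL lines. Meis1 was not called under any of the 20 alternatives that tested it (0.01 to 0.43 in YS and -0.17 to 0.04 in FL against BM lines). Lines that share a number did not deviate together (r from -0.12 to 0.09 in 9 pairs, and 2 of 9 lines correlated best with their own number), so the numbers were not taken as pairs. With the block, the calls of Cbfa2t3 (YS against BM lines) and Ly6a (FL against BM lines) were also lost. The other scalings moved the median of all genes in YS against BM lines from 0.11 to -0.01 (quantile) and 0.00 (median-of-ratios). The unknown depth limits what a value of 0 means for the 8 regulators that did not pass the filter. The cause of these changes was not tested.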

Other observations

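Other transcripts of progenitor and red cell programmes stood out in single lines, and were picked with their values in view. The 7 globin genes listed, which encode the chains of haemoglobin and are activated by GATA1, summed to 388 TPM in BM line 2 and to at most 14.5 TPM in any other line. In BM line 2, 6 of the 7 were above 0, with Hba-a1 at 215 TPM, Hba-a2 at 102 TPM and the embryonic genes Hbb-y at 43.0 TPM and Hba-x at 14.8 TPM, while Gata1 was listed at 0 there. Globin genes are near copies of each other, so the split among them is uncertain.

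YS line 1 held high values of several genes that were low elsewhere. Fgd5, a marker of blood stem cells and endothelium, was at 28.1 TPM in YS line 1, 2.10 TPM in YS line 2 and at most 0.03 TPM in the other lines. Tie1, an endothelial receptor gene, was at 25.8 TPM in YS line 1 and 4.99 TPM in YS line 2 and at most 1.54 TPM elsewhere. Hoxb5, a homeobox gene of stem cells, was at 3.75 TPM in YS line 1 and at most 0.48 TPM elsewhere. In FL line 1, Prdm16, which maintains stem cells and is related to Mecom, was at 3.56 TPM, and it was at most 0.02 TPM in the other 8 lines.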
